A study of Mus musculus with 5 samples.

Results

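Of the 22183 genes in the table, 59 were expressed in control mouse lens and had no count at all in either pool of Yap1 conditional knockout (cKO) lenses. The members were selected on measured counts, as the genes with a mean of at least 30 counts over the 3 control (Ctrl) libraries and 0 counts in both cKO libraries, after the deposited expected counts were rounded. Altogether 64 genes met these numbers, and the Y-linked genes Ddx3y, Eif2s3y, Kdm5d and Uty together with Usp18 and Plk1 were left out by name. Of the 6 genes left out, 5 met the numbers, since Uty had 2 counts in cKO 1. The difference between cKO and Ctrl chose the members, so it is described here and supports nothing.

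Poly(A) RNA of whole lenses was sequenced at postnatal day 14 in 2 cKO pools and 3 Ctrl pools of 4 to 6 lenses each, in order to find what changes when Yap1 is removed from the lens. Mice with the alleles Yap1 f/f;Cre or Yap1 f/+;Cre gave the cKO pools, and they were picked for a severe eye phenotype, with very small lenses or remnants of lenses. The Ctrl pools came from littermates that carried the floxed alleles (Yap1 f/f or f/+) and looked normal, although the genotype field reads WT. A cKO pool can thus mix animals with and without an intact Yap1 allele, and neither the Cre driver nor the strain is given in the sources used here. Nothing beyond the pooling says how the pools of a group are independent, so the p-values measure the spread between these pools. Libraries held 22672151 to 24320302 counts in cKO and 22047580 to 25762802 counts in Ctrl, and 12028 to 12602 genes had a count in a cKO library, against 13972 to 14199 genes in a Ctrl library. Yap1 itself had 92 and 61 counts in cKO 1 and 2, against 155, 133 and 143 counts in Ctrl 1, 2 and 3 (adjusted p = 0.0759, edgeR quasi-likelihood test). The Y-linked Ddx3y had 0 counts in both cKO pools, against 656, 812 and 854 counts in Ctrl 1, 2 and 3, so the sex of the pooled animals differed with the group and cannot be told apart from genotype. Among the members 2 genes (Heph and Hs6st2) lie on the X chromosome and 0 on the Y, with 58 of the 59 matched in the RefSeq annotation.

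YAP is a transcriptional co-activator that is held in the cytoplasm when the Hippo kinase pathway is active and that otherwise binds TEAD factors on DNA, often beside AP-1 sites. The lens is built of a single sheet of epithelial cells at the front, which divide and express E-cadherin and connexin genes, and of fibre cells behind it, which stop dividing and fill with crystallins. YAP is active in lens epithelium, where it is known for keeping progenitor cells proliferating, and dividing cells lie in a zone of that sheet. In a whole lens the fibres supply most RNA, so transcripts of the epithelium or of tissue attached to the lens are diluted. In bulk RNA, fewer cells of a type and less RNA per cell cannot be told apart.

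The members were genes of low abundance. Their mean Ctrl level was 1.31 to 16.6 CPM (counts made comparable between libraries by TMM scaling), with a median of 2.23 CPM, and their counts together made 0 and 0 in cKO 1 and 2, against 3857, 3390 and 3960 in Ctrl 1, 2 and 3. On the length-corrected scale, the median of the mean Ctrl FPKM was 0.638 for members, against 3.11 for all 9581 genes with a mean Ctrl count of at least 30. Of the members 67.8% (40 of 59) lay under 1 FPKM in Ctrl, against 20.2% of all control-expressed genes. A count of 0 allows up to 3 counts, which is 0.123 CPM in cKO 1 and 0.112 CPM in cKO 2. The mean Ctrl CPM lay above the mean of these 2 limits by 11.2-fold (Calca) to 142-fold (Myo18b), with a median of 19.1-fold. These bounds cover counting error in the cKO pools only and take the Ctrl mean as exact. They do not hold for every Ctrl pool: Gcnt4, Nipal1 and Derpc had 0 counts in 1 Ctrl pool, and Rab7b and Itga7 had 2 and 3 in Ctrl 3. For the Nnt record and Derpc the values are uncertain, as described below.

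**Figure D1:**
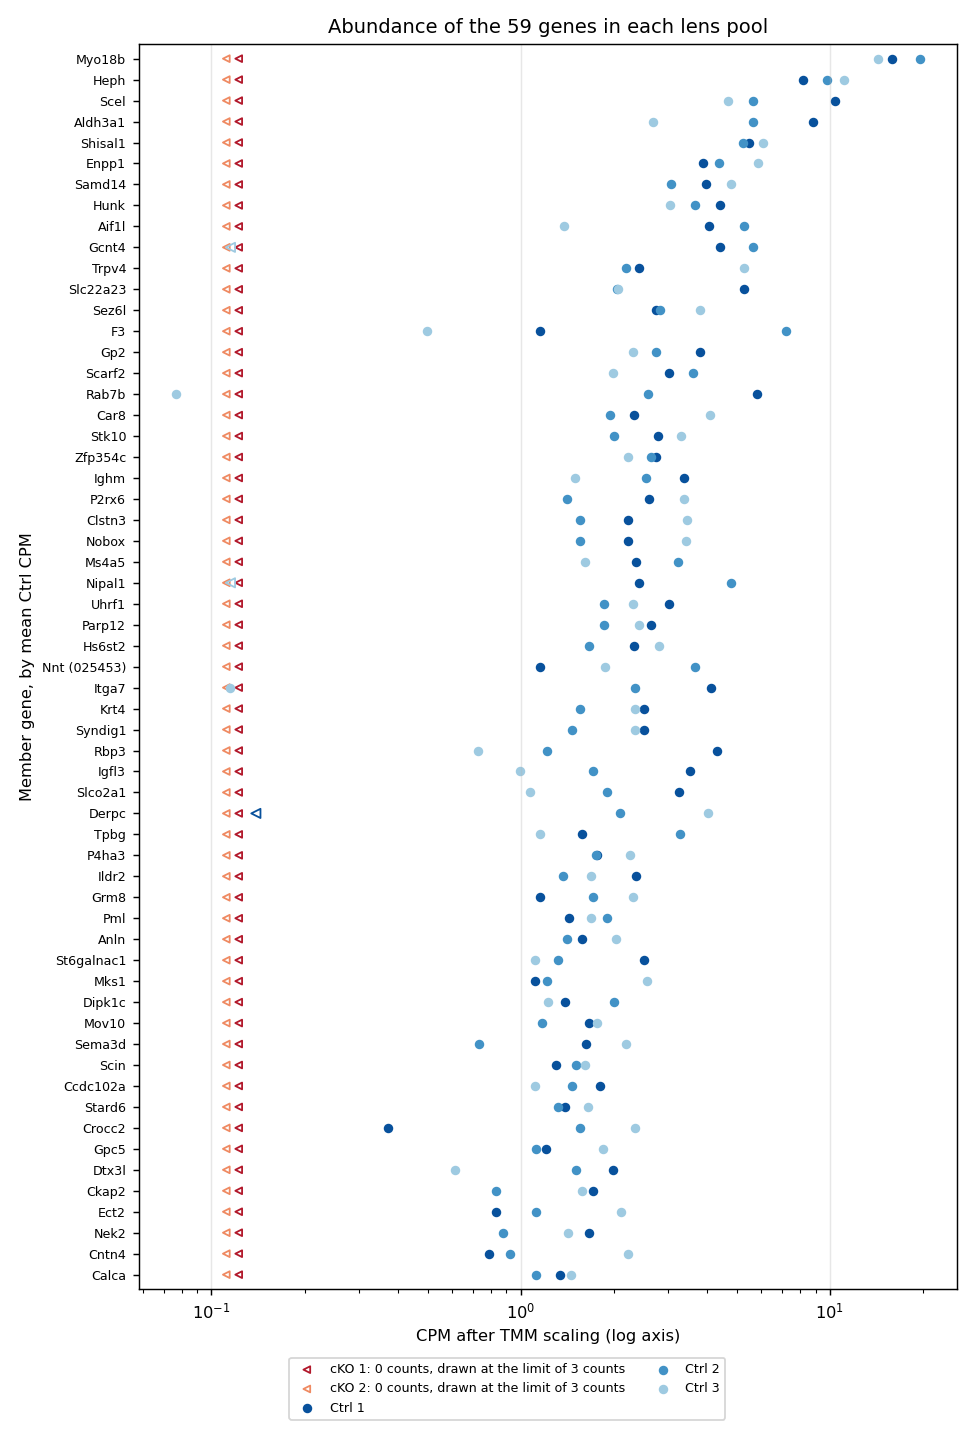
Level of each of the 59 genes in every pool, as CPM after TMM scaling on a log axis, ordered by mean Ctrl CPM. Open triangles mark pools with 0 counts, drawn at the level of 3 counts; filled points are Ctrl pools, which reach 19.6 CPM for Myo18b and fall among or beside the triangles for Gcnt4, Rab7b, Nipal1, Itga7 and Derpc in 1 Ctrl pool each.

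A count of 0 in both cKO pools was most common among weakly expressed genes. Of genes with a mean Ctrl count of 30 to under 50, 2.75% (31 of 1128) were at 0 in both cKO pools. The share was 1.43% (25 of 1749) between 50 and 100 counts, 0.196% (4 of 2041) between 100 and 200 counts and 0.107% (2 of 1872) between 200 and 400 counts. Above 400 counts it was 0.072% (2 of 2791), and these 2 genes are the Y-linked Ddx3y and Eif2s3y, which were left out by name. All shares given here include the left-out genes. Over all 9581 control-expressed genes the share was 0.668%, and a further 289 genes had 0 counts in 1 cKO pool only. The reverse pattern also occurred: 29 genes had a mean of at least 30 counts in the cKO pools and 0 counts in all 3 Ctrl pools.

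**Figure D2:**
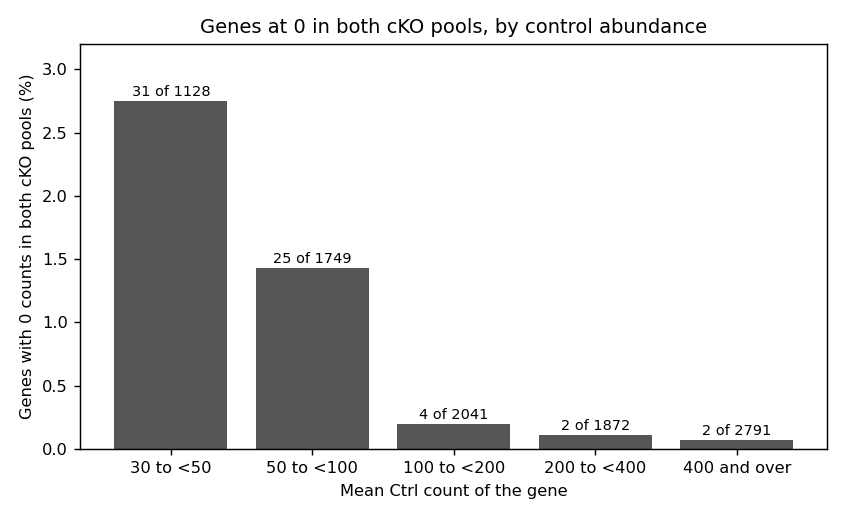
Share of genes with 0 counts in both cKO pools (vertical axis, percent) by mean Ctrl count (horizontal axis), with the number of such genes and of all genes over each bar, left-out genes included. The share is highest, at 2.75%, in the lowest class of 30 to under 50 counts.

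All 59 members passed the filter on low counts, which they could do through the Ctrl pools alone. The edgeR quasi-likelihood test over all genes called 53 of them lower in cKO, with adjusted p-values of 0.00275 to 0.124 over the 59, against a background of 7.73% called lower and 5.76% called higher among 11724 genes tested. The same contrast chose the members, and nothing is read from that count. It was 2, 1 and 4 members without Ctrl 1, 2 and 3 and 6 members with the replicate number as a block. The genes just inside the minimum were Calca (0 counts in both cKO pools, against 29, 23 and 38 in Ctrl 1, 2 and 3), Dtx3l (0 in both cKO pools, against 43, 31 and 16) and Nek2 (0 in both cKO pools, against 36, 18 and 37). Just outside it stood Cdh3 (0 in both cKO pools, against 18, 24 and 46), Slc22a8 (0 in both cKO pools, against 26, 16 and 45) and Itga8 (0 in both cKO pools, against 18, 24 and 44). A further 10 genes missed the rule by a single cKO count, of which Cdh1, the E-cadherin gene of the lens epithelium, was the most abundant (1 and 0 counts in cKO 1 and 2, against 557, 440 and 986 in Ctrl 1, 2 and 3). Next came Top2a, the topoisomerase of dividing cells (1 and 0 counts in cKO, against 95, 70 and 142 in Ctrl), then Spock3, Hdhd3 and Zfp677.

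Among cytoskeletal and motor genes (6 members), Myo18b was the most abundant member of all. It encodes an unconventional myosin that mouse skeletal and cardiac muscle need to assemble sarcomeres. Myo18b had 0 counts in both cKO pools, against 344, 402 and 373 counts in Ctrl 1, 2 and 3, which is 16.6 ± 2.72 CPM and 1.89 ± 0.271 FPKM in Ctrl (SD, n = 3). The 3 Ctrl pools lay close together, with the highest 1.37 times the lowest. Its nearest relative Myo18a, chosen after its values were seen, had 119 and 221 counts in cKO, against 192, 160 and 162 counts in Ctrl, and edgeR did not call it (log2 fold change -0.22, SE 0.31, adjusted p = 0.672). Myo7b, a more abundant myosin, had 486 and 92 counts in cKO, against 1492, 1022 and 741 counts in Ctrl, and was not called by edgeR either (log2 fold change -2.08, SE 0.75, adjusted p = 0.115).

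Striated muscle genes that were not members went both ways. Of 11 tested by edgeR, 1 was lower and 4 were higher in cKO, with a median log2 fold change of 0.77, against -0.056 over all genes tested, and the list summed to 271 and 281 CPM in cKO 1 and 2, with 161 to 180 CPM for Ctrl. The 4 higher genes became 0 without any 1 of the Ctrl pools and 18 without cKO 2. Mybpc1, a thick-filament protein, fell to 10 and 12 counts in cKO, against 161, 133 and 152 counts in Ctrl (log2 fold change -3.93, SE 0.34, edgeR adjusted p = 0.00464). Casq1, the calcium buffer of the sarcoplasmic reticulum, was higher at 1686 and 2024 counts in cKO, against 769, 784 and 919 counts in Ctrl (log2 fold change 0.99, SE 0.13, edgeR adjusted p = 0.0126). Of the 34 listed genes 8 had 0 counts in both cKO pools, as Myo18b did. Among them were Myh7, a myosin heavy chain, with 5, 4 and 6 counts in Ctrl, and Tnnt1, a troponin gene, with 9, 3 and 7 counts in Ctrl. In the Ctrl pools, where Myo18b was measured, 13 of the 34 had 0 counts. These 13 included the muscle myosin heavy chains Myh1, which had 51 and 0 counts in cKO 1 and 2, Myh6, which had 49 and 0, and Myh3 and Myh8, which had 0 counts in all 5 libraries. Other listed genes were present in every Ctrl pool. Actn2 had 326, 316 and 400 counts in Ctrl (15.3 CPM on average), against 596 and 121 in cKO, and was not called (edgeR adjusted p = 0.942). Actn3 had 35, 35 and 47 counts in Ctrl, against 32 and 17 in cKO.

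Aif1l and Itga7 varied more between Ctrl pools than Myo18b did. Aif1l, an actin-bundling protein, had 0 counts in both cKO pools, against 88, 108 and 36 counts in Ctrl 1, 2 and 3. Its relative Aif1, a marker of macrophages, had 41 and 11 counts in cKO, against 1, 0 and 0 counts in Ctrl. It was called higher (log2 fold change 5.70, SE 1.31, edgeR adjusted p = 0.0403). Aif1 passed the filter on low counts through the cKO pools alone, so it could only come out higher. Itga7, a laminin receptor known from muscle, had 0 counts in both cKO pools, against 89, 48 and 3 counts in Ctrl. Scin, which severs actin filaments, and the ciliary genes Mks1, of the transition zone, and Crocc2, related to rootletin, completed this group at a mean of 1.43 to 1.64 CPM in Ctrl and 0 counts in cKO. Of 3 genes of motile cilia, edgeR and DESeq2 called 0, and 1 was higher at an unadjusted p under 0.05.

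Among genes of epithelial surfaces (6 members), Scel and Aldh3a1 were the most abundant. Scel encodes sciellin, a precursor of the cornified envelope in stratified epithelia, and had 0 counts in both cKO pools, against 225, 116 and 122 counts in Ctrl 1, 2 and 3. Aldh3a1 encodes the aldehyde dehydrogenase that is a major soluble protein of mouse corneal epithelium, and had 0 counts in both cKO pools, against 190, 116 and 70 counts in Ctrl. On the length-corrected scale Igfl3, of the IGF-like family of secreted proteins, was the highest member, at 3.33 ± 1.92 FPKM in Ctrl from 76, 35 and 26 counts, with 0 in both cKO pools. Aldh3a1 followed at 3.06 ± 1.49 FPKM and Scel at 2.65 ± 1.03 FPKM in Ctrl (SD, n = 3). All 3 were highest in Ctrl 1, as were Gp2, a membrane-anchored glycoprotein of secretory cells (0 counts in cKO, against 82, 56 and 60), and St6galnac1, a sialyltransferase of mucin-type glycans. Krt4, a keratin of moist stratified epithelia, had 0 counts in both cKO pools, against 54, 32 and 61 counts in Ctrl. The 6 genes summed to 0 CPM in both cKO pools, against 31.6, 18.6 and 14.1 CPM in Ctrl 1, 2 and 3, and 5 of the 6 were highest in Ctrl 1 by FPKM.

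The list of corneal and conjunctival epithelium held 13 genes, of which Krt4 and Aldh3a1 are members. Of the 11 listed genes other than Krt4 and Aldh3a1, 6 (Krt12, Krt5, Krt14, Trp63, Muc4 and Slurp1) had 0 counts in all 5 libraries. The 11 genes summed to 2.25 and 4.73 CPM in cKO 1 and 2 and to 1.69 to 3.11 CPM in the Ctrl pools. All the cKO counts of the list were those of Elf3, an epithelial transcription factor, and the other 10 genes had 0 counts in both cKO pools. Without Elf3, chosen after its values were seen, the list summed to 0 CPM in both cKO pools, against 2.09, 1.17 and 1.23 CPM in Ctrl. Krt15, a basal keratin, had 18, 8 and 9 counts in Ctrl, Ehf had 3, 3 and 1, and Krt13 had 4, 0 and 3. Elf3 had 55 and 127 counts in cKO, against 22, 28 and 12 counts in Ctrl, and was not called (log2 fold change 1.88, SE 0.60, edgeR adjusted p = 0.0848). Upk1b, of the uroplakins, was lower, with 0 counts in both cKO pools, against 20, 13 and 19 counts in Ctrl (edgeR adjusted p = 0.0293). It passed the filter on low counts through the Ctrl pools alone, so it could only be lower. Of 6 tested genes of epithelial junctions and keratins, 3 were lower in cKO, namely Spint2, Cdh3 and Epcam, and 0 were higher. Cdh3 and Epcam had 0 counts in both cKO pools and passed the filter in the same way as Upk1b. The 6 genes had a median log2 fold change of -2.92 (-2.36 with genes at 0 in cKO set to the level of 3 counts) against -0.056 over all genes. Of the 23 listed genes, 17 had too few counts to test and 14 had 0 counts in both cKO pools. Their sum was 7.56 and 4.77 CPM for cKO 1 and 2, against 20.1 to 44.5 CPM for Ctrl, and the 3 calls became 0 without any 1 of the Ctrl pools, 5 without cKO 1 and 2 without a filter on low counts. Among relatives of Aldh3a1, the abundant lens enzyme Aldh1a1 had 3836 and 7026 counts in cKO, against 5641, 4768 and 7854 in Ctrl, and was not called (edgeR adjusted p = 0.39), nor were Aldh7a1 (0.178) and Aldh3a2 (0.0618; chosen after its values were seen).

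**Figure D3:**
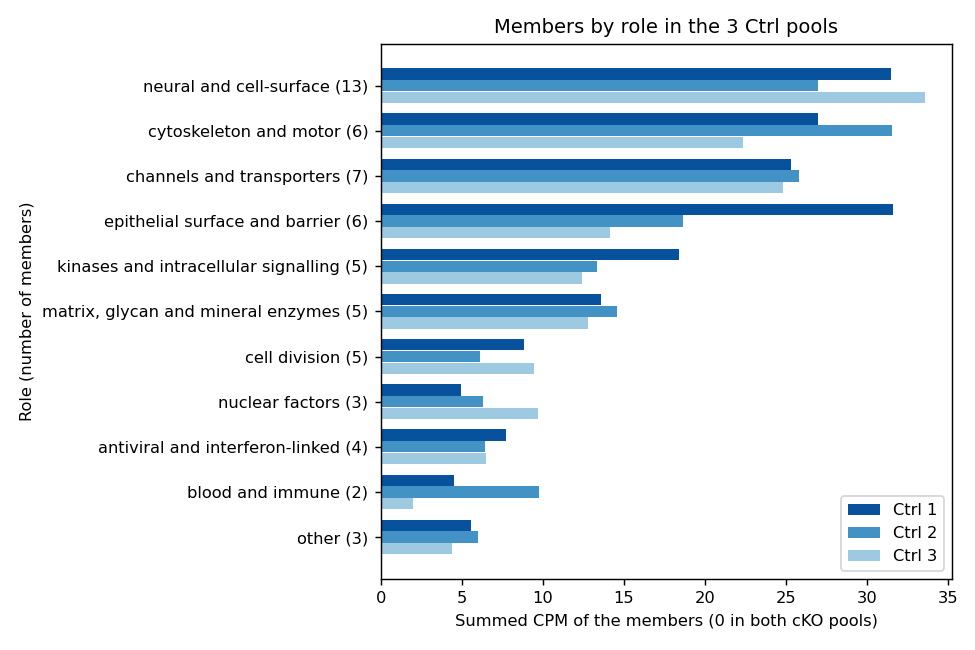
Summed CPM of the members in the Ctrl pools (horizontal axis) for each role given to them, with the number of members in brackets; every bar would be 0 in both cKO pools. Epithelial surface genes differ most in absolute size between Ctrl pools, at 31.6 CPM in Ctrl 1 and 14.1 CPM in Ctrl 3.

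Lens epithelial genes that were not members fell in part. Of 15 tested, 6 were lower and 0 higher in cKO (Pax6, Cdh1, Gja1, Npnt, Mab21l2 and Pdgfra), with a median log2 fold change of -0.43 against -0.056 over all genes. Gja1, the gap junction protein of lens epithelium, fell to 36 and 20 counts in cKO, against 1375, 778 and 1301 counts in Ctrl (log2 fold change -5.52, SE 0.41, edgeR adjusted p = 0.00352). Npnt, a matrix ligand of integrins, fell to 269 and 299 counts in cKO, against 951, 859 and 1666 counts in Ctrl (log2 fold change -2.18, SE 0.24, edgeR adjusted p = 0.00756). Cdh1 fell to 1 count over both cKO pools, against 1983 over the Ctrl pools, a ratio of Ctrl to cKO of 1495 with a 95% counting interval of 268 to 59080 (edgeR adjusted p = 0.00275). Other epithelial genes stayed abundant: Sfrp1 had 6474 and 15389 counts in cKO, against 9413, 11289 and 13245 in Ctrl, Dkk3 had 22189 and 50606 in cKO, against 27462, 30618 and 36879 in Ctrl, and edgeR called neither (adjusted p = 0.644 and 0.999). The sum over the list was 1527 and 2940 CPM for cKO 1 and 2, against 2431 to 2652 CPM for Ctrl, so the 2 cKO sums lay on either side of the Ctrl range. Most of each sum came from Dkk3 (mean 1396 CPM in cKO and 1395 in Ctrl) and Sfrp1 (419 and 499). Foxe3 had 94 and 8 counts in cKO, against 492, 300 and 675 in Ctrl. It was not called (log2 fold change -3.36, SE 0.89, edgeR adjusted p = 0.0554). Cdh1 and Mab21l2 passed the filter on low counts through the Ctrl pools alone, so they could only be lower. The 6 lower calls were 2, 2 and 3 without Ctrl 1, 2 and 3 and 11 without cKO 2. Of 18 lens fibre genes 5 were lower and 0 higher, with a median of -0.63, and the 5 became 1, 0 and 1 without Ctrl 1, 2 and 3 and 9 and 8 without cKO 1 and 2. At an unadjusted p under 0.05, 0 lens epithelial and 2 lens fibre genes were higher, and DESeq2 called 0 of either list higher.

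Channels and transporters (7 members) were led by Heph and Trpv4. Heph encodes hephaestin, a membrane ferroxidase that works with the iron exporter ferroportin, and had 0 counts in both cKO pools, against 177, 200 and 289 counts in Ctrl 1, 2 and 3 (9.69 ± 1.44 CPM in Ctrl, SD, n = 3). The gene for ferroportin, Slc40a1, was lower too, with 46 and 40 counts in cKO, against 182, 129 and 218 counts in Ctrl (log2 fold change -2.19, SE 0.30, edgeR adjusted p = 0.0137). Cp, the related ferroxidase ceruloplasmin, had 2284 and 2977 counts in cKO, against 2195, 2082 and 3157 counts in Ctrl, and was not called (log2 fold change -0.084, SE 0.16, edgeR adjusted p = 0.756). Slc40a1 and Cp were chosen after their values were seen, and Hephl1, the third ferroxidase of the family, had 0 counts in all 5 libraries.

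Trpv4 encodes a calcium channel that opens on swelling and stretch and is known from lens epithelium. It had 0 counts in both cKO pools, against 52, 45 and 138 counts in Ctrl 1, 2 and 3, and its relative Trpv2 had 40 and 45 counts in cKO, against 5, 12 and 1 in Ctrl, without a call (log2 fold change 2.54, SE 0.97, edgeR adjusted p = 0.132). Slc22a23, an orphan carrier of the organic ion transporter family, had 0 counts in both cKO pools, against 114, 42 and 54 counts in Ctrl. P2rx6, a subunit of channels gated by extracellular ATP, had 0 counts in both cKO pools, against 56, 29 and 88 counts in Ctrl. Trpv4 and P2rx6 were highest in Ctrl 3, and Slc22a23 was highest in Ctrl 1. Nipal1, related to magnesium transporters, had 0 counts in both cKO pools, against 52, 98 and 0 counts in Ctrl, so Ctrl 3 overlapped the cKO pools. Slco2a1, which carries prostaglandins, had 0 counts in both cKO pools, against 70, 39 and 28 counts in Ctrl.

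A record of Nnt, the mitochondrial transhydrogenase, shares its symbol with another identifier. The member record (ENSMUSG00000025453) had 0 in both cKO pools, against expected counts of 25.3, 75.5 and 49.2 in Ctrl 1, 2 and 3, while the other record of the symbol had 430 and 531 in cKO, against 273, 180 and 383 in Ctrl. Derpc, a nuclear protein gene, had 0 in both cKO pools, against expected counts of 0, 43.3 and 105 in Ctrl, and the gene Chtf8 that overlaps it had 366 and 287 in cKO, against 251, 163 and 236 in Ctrl. The values of Nnt and Derpc are therefore uncertain. Altogether 5 members had a value in Ctrl that was not a whole number, and 7 members overlap a protein-coding gene in the annotation, whose reads cannot be told apart without knowing the use of strand.

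The group with roles in neural tissue or at the cell surface was the largest (13 members). Shisal1, of the Shisa-like membrane proteins, had 0 counts in both cKO pools, against 118, 107 and 159 counts in Ctrl 1, 2 and 3, the most even of the 20 most abundant members (highest over lowest Ctrl CPM 1.17). Sez6l, a seizure-related membrane protein, had 0 counts in both cKO pools, against 59, 58 and 99 counts in Ctrl. Scarf2, a scavenger-type receptor, had 0 counts in both cKO pools, against 65, 74 and 52 counts in Ctrl. Car8, a carbonic anhydrase-like protein without enzyme activity that binds the inositol trisphosphate receptor, had 0 counts in both cKO pools, against 50, 40 and 107 counts in Ctrl. In these 4 genes every Ctrl pool had at least 40 counts. Car14, an active membrane-bound relative of Car8, was lower as well, with 255 and 95 counts in cKO, against 1256, 1180 and 2328 counts in Ctrl (log2 fold change -3.30, SE 0.51, edgeR adjusted p = 0.017), whereas Car2 had 6255 and 847 counts in cKO, against 489, 455 and 524 counts in Ctrl, without a call (log2 fold change 2.73, SE 0.74, adjusted p = 0.0593).

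Synaptic and guidance genes made up much of the rest of that group. They were Clstn3, a synaptic adhesion protein, Syndig1, of postsynaptic sites, Grm8, a glutamate receptor, Cntn4, an axonal adhesion protein, and Sema3d, a secreted guidance cue, each at 1.31 to 2.41 CPM on average in Ctrl and at 0 in cKO. Calca, the calcitonin and CGRP gene, lay low by count, as given above for the genes just inside the minimum, but was the seventh highest member per length, at 1.52 ± 0.319 FPKM in Ctrl. Tpbg, an inhibitor of Wnt signalling, and Ildr2 were also members. Of 16 Wnt pathway genes tested, edgeR called 1 lower (Fzd1) and 0 higher in cKO, with 3 lower and 2 higher at an unadjusted p under 0.05 and 1 higher by DESeq2. The 1 lower call became 0 without any 1 of the Ctrl pools and 5 without cKO 2. Rbp3, which encodes the retinoid-binding protein of the space around photoreceptors, had 0 counts in both cKO pools, against 93, 25 and 19 counts in Ctrl 1, 2 and 3.

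The spread of Rbp3 between Ctrl pools was shared by other photoreceptor genes, which were picked for display after their values were seen. Gnat1, the transducin subunit of rods, had 68 and 26 counts in cKO, against 255, 57 and 10 counts in Ctrl 1, 2 and 3. Sag, rod arrestin, had 11 and 10 counts in cKO, against 223, 56 and 7 counts in Ctrl. Among the Ctrl pools both genes were highest in Ctrl 1 and lowest in Ctrl 3, like Rbp3, and both cKO pools lay above Ctrl 3 in each. The retinal list summed to 98.8 and 64.1 CPM for cKO 1 and 2, against 72.8, 26.8 and 16.2 CPM for Ctrl 1, 2 and 3. Most of the cKO sums came from Cabp5, with 1347 and 1474 counts in cKO, against 111, 116 and 136 counts in Ctrl, and Trpm1, with 518 and 139 counts in cKO, against 143, 78 and 113 counts in Ctrl. Without these 2 genes of bipolar cells, chosen after their values were seen, the list summed to 22.7 and 4.02 CPM for cKO 1 and 2, against 61.1, 17.3 and 6.68 CPM for Ctrl 1, 2 and 3. EdgeR called 0 lower and 2 higher among 12 tested (Cabp5 and Arr3), with 1 lower at an unadjusted p under 0.05 and 1 lower by DESeq2. Arr3, with 80 and 32 counts in cKO, against 2, 0 and 0 in Ctrl, passed the filter through the cKO pools alone. It could thus only be higher. The 2 higher calls were 1 without any 1 of the Ctrl pools and 6 without cKO 2. The part of retinal RNA in the values of Rbp3 was not tested.

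Itga7 and Rab7b were highest in Ctrl 1 and lowest in Ctrl 3, as were Des, the intermediate filament gene of muscle, and Axl, a receptor tyrosine kinase, all 4 shown after their values were seen. Des had 8 and 0 counts in cKO, against 113, 64 and 0 counts in Ctrl 1, 2 and 3. Axl had 69 and 28 counts in cKO, against 158, 81 and 17 counts in Ctrl. In each of these 4 genes Ctrl 3 was far below the other Ctrl pools and, for Itga7 and Rab7b, near the cKO level of 0. Trpv4 was highest in Ctrl 3 together with Oca2 and Tyrp1, genes of pigmented cells, and Aqp4, a water channel listed here for ciliary epithelium. Oca2 had 12 and 0 counts in cKO, against 80, 50 and 216 counts in Ctrl, and Tyrp1 had 9 and 0 counts in cKO, against 57, 64 and 120 counts in Ctrl. EdgeR called neither (adjusted p = 0.0641 and 0.0535), whereas Aqp4 was lower, with 13 and 0 counts in cKO, against 134, 108 and 231 counts in Ctrl (log2 fold change -4.68, SE 1.04, adjusted p = 0.0368). Ciliary genes summed to 12.7 and 4.73 CPM for cKO 1 and 2, against 15.9 to 35.2 CPM for Ctrl, and pigment cell genes to 6.33 and 3.02 CPM for cKO, against 11.6 to 18.7 CPM for Ctrl. Some other listed pigment genes were higher in count in cKO 1 than in any Ctrl pool, with Dct at 35 and 4 counts in cKO, against 3, 0 and 0 in Ctrl, and Mlana at 14 and 0 counts in cKO, against 0 in all 3 Ctrl pools. Slc45a2 had 9 and 0 counts in cKO, against 0, 0 and 2 in Ctrl. Optc, a defining gene of the ciliary epithelium, had 0 counts in both cKO pools, against 1, 4 and 29 counts in Ctrl, Zic2 had 0 counts in all 5 libraries, and the part of either tissue in the values of Trpv4 was not tested.

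**Figure D4:**
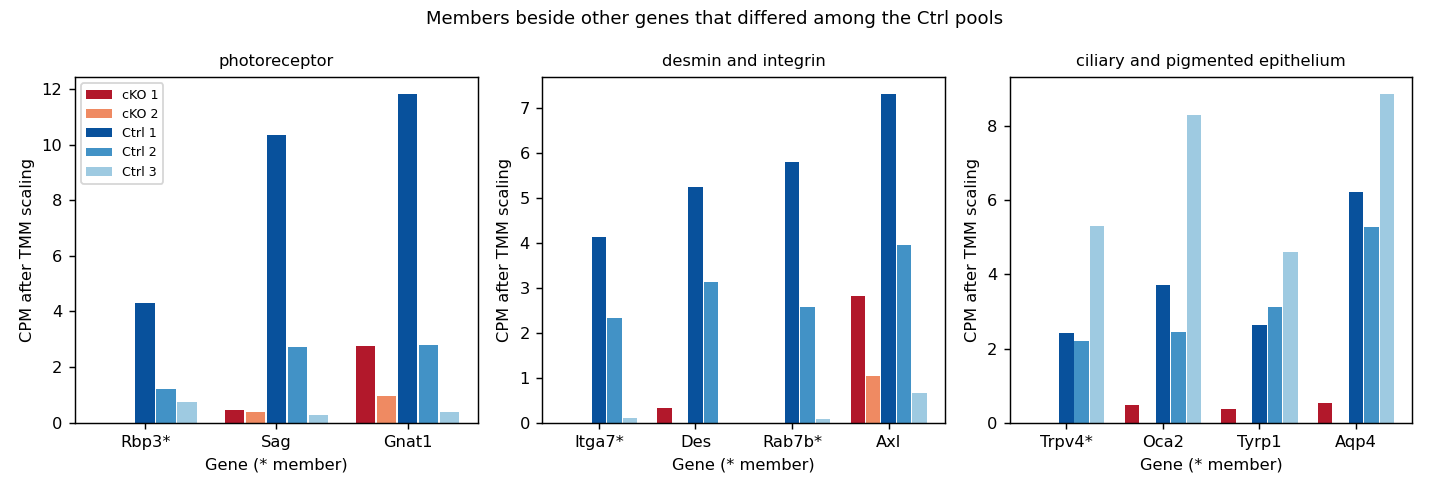
CPM after TMM scaling in each pool (bars, cKO pools left of Ctrl pools) for 4 members, marked with an asterisk, and for 7 other genes that were high in the same Ctrl pool, picked after their values were seen. Photoreceptor genes and Itga7, Des, Rab7b and Axl are highest in Ctrl 1 and lowest of the Ctrl pools in Ctrl 3, and Trpv4, Oca2, Tyrp1 and Aqp4 are highest in Ctrl 3, at 4.61 to 8.87 CPM.

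Spread between Ctrl pools was wide for the members as a whole. The median coefficient of variation over the 3 Ctrl pools was 33.9% for the 30 members with a mean Ctrl count of 30 to under 50, against 22.6% for the 1098 other genes of that class, and 38.3% for the 23 members of 50 to under 100 counts, against 18.1% for 1726 others. The highest Ctrl CPM exceeded the lowest by more than 2 times in 26 members, by more than 3 times in 11 and by more than 5 times in 5, of which F3 and Rab7b were the most abundant, not counting members at 0 in a Ctrl pool. In 53 members every Ctrl pool held at least 10 counts. The other 6 were Gcnt4 (95, 116 and 0 counts in Ctrl 1, 2 and 3), Nipal1, Derpc, Rab7b (125, 53 and 2), Itga7 and Crocc2 (8, 32 and 61), all with 0 in both cKO pools. By FPKM, 19 members were highest in Ctrl 1, 11 in Ctrl 2 and 29 in Ctrl 3.

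Genes of cell division numbered 5 members. They were Uhrf1, which maintains DNA methylation at replication, Anln and Ect2, which drive cytokinesis, Nek2, a kinase of the centrosome, and Ckap2, a spindle protein. Uhrf1 was the most abundant of them, with 0 counts in both cKO pools, against 65, 38 and 60 counts in Ctrl 1, 2 and 3, and the 5 together made 0 CPM in both cKO pools, against 8.82, 6.10 and 9.45 CPM in Ctrl. Of 32 further cell cycle genes tested, 10 were lower and 0 higher in cKO. The median log2 fold change of the 32 was -1.99, against -0.056 over all genes. The 32 genes summed to 27.9 and 33.0 CPM for cKO 1 and 2, against 79.9 to 113 CPM for Ctrl. Of the lower genes, Top2a, Rrm2, Kif11, Nusap1, Mcm3 and Bub1 had at most 5 counts in either cKO pool. They passed the filter on low counts through the Ctrl pools alone, so they could only be lower. Top2a fell to 1 count over both cKO pools, against 307 over the Ctrl pools, a ratio of Ctrl to cKO of 232 with a 95% counting interval of 41.2 to 9171 (edgeR adjusted p = 0.00727). Mcm6, of the replicative helicase, fell to 24 and 20 counts in cKO, against 133, 80 and 222 counts in Ctrl (log2 fold change -2.84, SE 0.46, edgeR adjusted p = 0.0193). Bub1, of the spindle checkpoint, had 0 counts in both cKO pools, against 15, 15 and 39 counts in Ctrl (edgeR adjusted p = 0.0297), and Mcm7, of the same helicase as Mcm6, fell to 49 and 90 counts in cKO, against 186, 136 and 194 counts in Ctrl (log2 fold change -1.50, SE 0.33, adjusted p = 0.0354). The other 22 genes were not called by edgeR. Among them Mki67 had 25 and 4 counts in cKO, against 19, 7 and 36 counts in Ctrl (edgeR adjusted p = 0.741). Tyms had 102 and 68 counts in cKO, against 77, 55 and 93 counts in Ctrl (log2 fold change 0.03, edgeR adjusted p = 0.969). At an unadjusted p under 0.05, 17 of the 32 were lower and 0 higher, and DESeq2 called 0 higher. The 10 lower calls became 0 without any 1 of the Ctrl pools, 1 with the replicate block, 16 by DESeq2 and 24 without either cKO pool.

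Matrix, glycan and mineral enzymes numbered 5 members. Enpp1 makes the mineralisation inhibitor pyrophosphate from ATP, and had 0 counts in both cKO pools, against 84, 90 and 153 counts in Ctrl 1, 2 and 3. Its relatives were higher in cKO, with Enpp5 at 708 and 1170 counts in cKO, against 359, 412 and 530 in Ctrl (log2 fold change 0.93, SE 0.22, edgeR adjusted p = 0.041), and Enpp4 at 580 and 632 counts in cKO, against 232, 296 and 324 in Ctrl (0.91, SE 0.18, adjusted p = 0.0286). Gcnt4, which branches mucin-type O-glycans, overlapped between the groups because Ctrl 3 had 0 counts. Its relative Gcnt1 had 0 counts in both cKO pools, against 27, 16 and 1 counts in Ctrl, and was not called (edgeR adjusted p = 0.106). Hs6st2, a heparan sulfate sulfotransferase, P4ha3, a subunit of collagen prolyl hydroxylase, and Gpc5, a glypican that carries heparan sulfate, had means of 1.39 to 2.26 CPM in Ctrl and 0 counts in both cKO pools.

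Kinases and intracellular signalling genes also numbered 5. Samd14, a SAM domain protein, had 0 counts in both cKO pools, against 86, 63 and 125 counts in Ctrl 1, 2 and 3. Hunk, a serine/threonine kinase of the SNF1 family, had 0 counts in both cKO pools, against 95, 75 and 79 counts in Ctrl. Stk10, a kinase that acts on the membrane linkers ezrin, radixin and moesin, had 0 counts in both cKO pools, against 60, 41 and 86 counts in Ctrl. In these 3 genes every Ctrl pool had at least 41 counts. Rab7b, a small GTPase of late endosomes, had 0 counts in both cKO pools and 2 counts in Ctrl 3, whereas Rab11a, the most abundant relative compared, was higher at 4824 and 4594 counts in cKO, against 2487, 2343 and 3208 in Ctrl (log2 fold change 0.65, SE 0.14, edgeR adjusted p = 0.0319). Dipk1c, of a kinase-like family, completed the group.

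Genes linked to interferon and antiviral responses included 4 members, Parp12, an ADP-ribosyltransferase, Pml, which builds nuclear bodies, Mov10, an RNA helicase, and Dtx3l, a ubiquitin ligase that pairs with Parp9. They summed to 0 CPM in both cKO pools, against 7.75, 6.44 and 6.49 CPM in Ctrl, while Dtx3l itself varied, with 43, 31 and 16 counts in Ctrl 1, 2 and 3. Pml had 31, 39 and 44 counts in Ctrl 1, 2 and 3, with the highest Ctrl CPM 1.32 times the lowest. Its level was 1.68 ± 0.233 CPM and 0.396 ± 0.0051 FPKM in Ctrl (SD, n = 3), so the FPKM values spread less than the CPM values. Parp9, whose annotation overlaps Dtx3l, had 0 and 10 expected counts in cKO, against 44, 16 and 21.4 in Ctrl. The 16 listed macrophage genes summed to 154 and 42.5 CPM for cKO 1 and 2, against 2.15 to 4.27 CPM for Ctrl. Genes such as C1qa (561 and 207 counts in cKO, against 6, 0 and 3 in Ctrl) passed the filter on low counts through the cKO pools alone. Such genes could only come out higher, and 5 listed genes had too few counts to test. Of the 11 tested, 10 were higher and 0 lower in cKO, with a median log2 fold change of 4.94. The 10 became 0 without any 1 of the Ctrl pools, 4 with the replicate block and 15 without cKO 2, and 0 were lower at an unadjusted p under 0.05 or by DESeq2.

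Blood and immune genes contributed F3 and Ighm. Ighm, the heavy chain of immunoglobulin M, had 0 counts in both cKO pools, against 73, 52 and 39 counts in Ctrl 1, 2 and 3, or 1.43 ± 0.450 FPKM in Ctrl (SD, n = 3). The B cell gene Cd79a and the T cell genes Cd3e and Cd8a had 0 counts in all 5 libraries. The B cell gene Ms4a1 had 0 counts in both cKO pools, against 1, 4 and 0 counts in Ctrl. Nkg7, of cytotoxic lymphocytes, had 77 and 112 counts in cKO, against 50, 45 and 52 counts in Ctrl. F3 encodes tissue factor, which starts blood coagulation, and is a known YAP target in other tissues. F3 had 0 counts in both cKO pools, against 25, 148 and 13 counts in Ctrl, so that Ctrl 2 held most of its reads and the highest Ctrl CPM was 14.5 times the lowest. Among the 20 other YAP target genes tested, 3 were lower (Gadd45b, Tgfb2 and Asap1) and 1, Fjx1, was higher in cKO, with a median log2 fold change of -0.29 against -0.056 over all genes. Gadd45b fell to 597 and 513 counts in cKO, against 1449, 1009 and 1910 counts in Ctrl (log2 fold change -1.54, SE 0.23, edgeR adjusted p = 0.0156). The 3 lower calls became 1 under total count scaling, 0 without any 1 of the Ctrl pools and 7 without cKO 2.

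The remaining members had no common role. Zfp354c, a zinc finger protein, had 0 counts in both cKO pools, against 59, 54 and 58 counts in Ctrl 1, 2 and 3. Nobox, a homeobox factor known from oocytes, had 0 counts in both cKO pools, against 48, 32 and 89 counts in Ctrl. Ms4a5, of a family of membrane-spanning proteins, had 0 counts in both cKO pools, against 51, 66 and 42 counts in Ctrl, and was the fourth highest member per length at 2.23 ± 0.689 FPKM in Ctrl (SD, n = 3). These 3 genes were detected in all Ctrl pools at 32 counts or more. Stard6, a lipid transfer protein, and Ccdc102a, a coiled-coil protein, were also members.

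Membrane and cell-surface annotation was common among the members. By the Gene Ontology terms in the deposited table, 44.1% of members (26 of 59) were integral membrane proteins, against 21.8% of the 6634 genes in the members' range of mean Ctrl counts. Cell surface was the term of 15.3% of members (9) against 2.31%, extracellular space of 15.3% against 3.51% and ion transport of 10.2% (6) against 2.14%. The term nucleus was less common, at 22.03% of members (13) against 40.77% of genes in range. These shares are descriptions without a test, and the 2 sets were not matched in abundance. A mean Ctrl count under 50 was found in 30 of the 59 members, against 1128 of the 6634 genes in range.

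**Figure D5:**
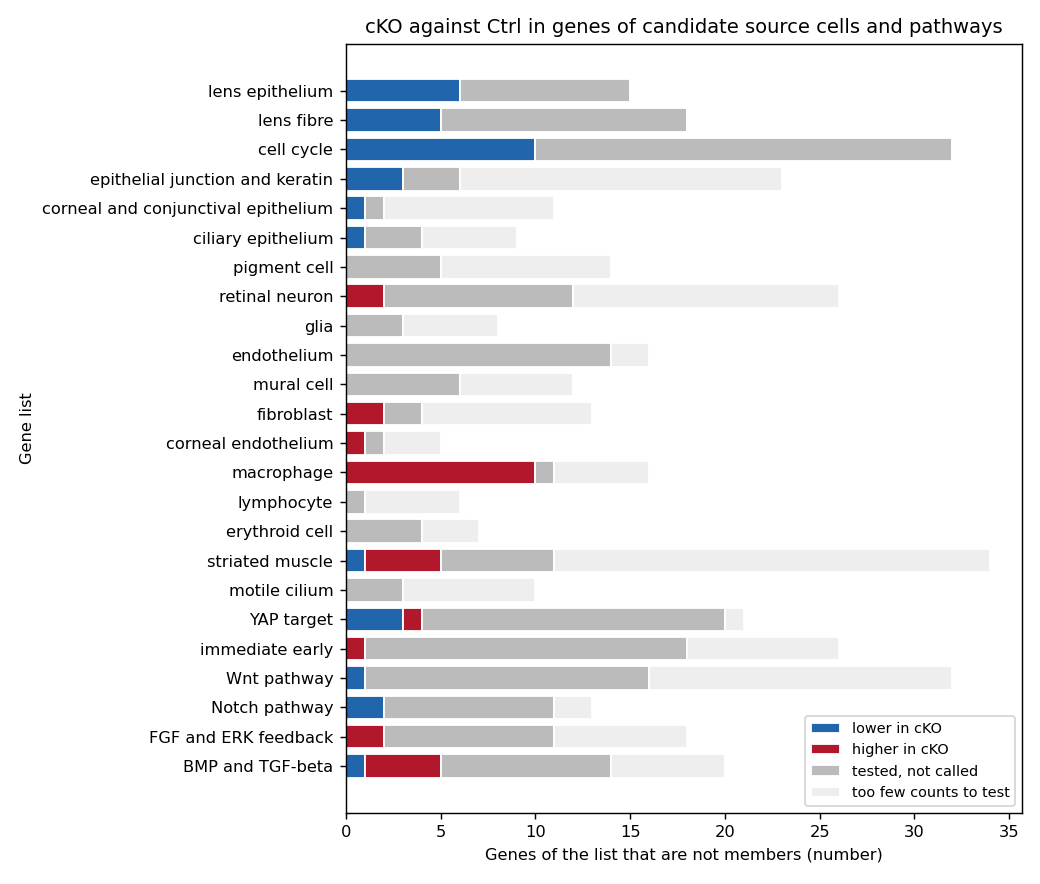
Number of genes in each list that are not members (horizontal axis), split by the edgeR call in cKO against Ctrl at an adjusted p under 0.05, with genes too low to test in pale grey. Cell cycle genes have 10 lower and 0 higher calls, and macrophage genes 10 higher and 0 lower.

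Promoters of the members were searched for the core motif of TEAD factors, which carry YAP to DNA, and for the AP-1 motif often found with it. Of the 59 members, 43 had an entry among RefSeq promoters (GRCm38.p6, 250 bases before to 50 after the start). GGAATG, read on both strands, was in 16.3% of them (7), against 16.6% of all 27025 promoters and 14.3% of those of genes in the members' count range. TGANTCA, also on both strands, was in 13.95% of them (6), against 8.97% of all promoters and 5.42% of those in range. The genes with GGAATG were P2rx6, Uhrf1, Hs6st2, Igfl3, Grm8, Mov10 and Nek2, and those with TGANTCA were Scel, Gcnt4, F3, Tpbg, Grm8 and Cntn4. The genes in range were not matched to the members in abundance. A match is a description of these letters and not a binding site or a cause. Shown are P2rx6 and Scel, the most abundant member with each motif, and F3, the listed YAP target, all on the plus strand, at chr16:17561635-17561934 for P2rx6, chr14:103513091-103513390 for Scel and chr3:121723287-121723586 for F3, with GGAATG in capitals in P2rx6 and TGANTCA in capitals in Scel and F3.
P2rx6: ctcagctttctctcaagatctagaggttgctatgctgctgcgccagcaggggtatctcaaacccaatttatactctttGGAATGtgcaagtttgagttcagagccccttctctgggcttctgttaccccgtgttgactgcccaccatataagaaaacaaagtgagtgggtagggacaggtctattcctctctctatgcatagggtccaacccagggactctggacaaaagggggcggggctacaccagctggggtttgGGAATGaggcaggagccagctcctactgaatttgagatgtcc
Scel: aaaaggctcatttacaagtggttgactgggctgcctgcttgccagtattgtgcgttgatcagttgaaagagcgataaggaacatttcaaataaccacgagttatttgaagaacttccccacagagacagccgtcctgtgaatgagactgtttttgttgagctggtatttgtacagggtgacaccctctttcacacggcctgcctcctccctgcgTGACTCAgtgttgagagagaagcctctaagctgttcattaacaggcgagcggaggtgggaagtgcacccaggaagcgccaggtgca
F3: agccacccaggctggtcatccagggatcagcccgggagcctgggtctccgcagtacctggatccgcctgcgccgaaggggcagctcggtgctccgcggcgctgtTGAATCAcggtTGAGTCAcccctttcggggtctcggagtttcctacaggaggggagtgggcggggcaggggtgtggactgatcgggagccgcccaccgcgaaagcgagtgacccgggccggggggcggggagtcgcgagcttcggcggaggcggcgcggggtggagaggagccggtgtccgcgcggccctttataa
P2rx6 holds GGAATG at 2 places, Scel holds TGANTCA at 1 place and F3 at 2 places close together.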

How the data were processed

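RNA of 2 cKO and 3 Ctrl pools of P14 mouse lenses was analysed. The authors deposited 1 table of 22183 genes with an expected count and an FPKM value per library. Per the values, the deposited expected counts carry no scaling, and the deposited FPKM values, as their name says, are per gene length and library size. RSEM, Trimmomatic 0.18.0 and GRCm39 appear in the submitters' processing notes, and the aligner, each tool's role and strandedness were not given in the sources used here. Per the labels' protocols, RNA integrity was above 8.0, 1 µg went into a library and reads were paired at 150 bp.

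Expected counts were rounded. filterByExpr (minimum count 10, total 15) left 11724 genes, which were scaled by TMM and compared between cKO and Ctrl with the quasi-likelihood F test of edgeR 4.0.16 (limma 3.58.1, R 4.3.3), with Benjamini-Hochberg adjustment and calls at an adjusted p under 0.05. The test was checked on simulated data. A tested gene at 0 or a few counts in both cKO pools passed filterByExpr through the Ctrl pools alone and could only be lower. This holds for list genes too, such as Mab21l2, Bub1, Cdh1 and Top2a. The reverse holds for genes at 0 or a few counts in all Ctrl pools, such as Col8a1, Aif1 and Arr3. Limits for a count of 0 (3 counts) and intervals cover counting error only, because reads lacked molecular identifiers.

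Roles were given to the members by hand, and 24 gene lists (410 entries) stood for candidate cell sources and pathways. Members, roles and lists were chosen with earlier results of these data known. Values in every pool are given for Myo18b, for the 20 members highest by Ctrl CPM and the 10 highest by Ctrl FPKM, and for some others by role. Called genes could be named from a list if they were its 2 most abundant or its 2 with the largest change (or the 2 most abundant tested ones, with no call), and other list genes were named after seeing them. At most 2 relatives with the same symbol stem are given per member. Alternatives were other minima, scalings and filters, DESeq2 1.42.0, a replicate block and leaving out each pool. Under total count scaling the median log2 fold change of all genes was 0.162, against -0.056 under TMM, and list changes are read relative to that median. Promoters and overlaps came from RefSeq (GRCm38.p6), another build than the authors', and coordinates are given only for the printed promoters.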

Additional observations from a re-analysis of the deposited data

How the results depend on the processing

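The members numbered 59 and became 114, 29 and 6 with a minimum of 20, 50 and 100 Ctrl counts, 69 with at most 1 cKO count in all and 48 with a mean Ctrl CPM of at least 1.5. Leaving out a pool gave 53 to 245 members (245 without cKO 1, 161 without cKO 2). The numbers of genes called lower and higher in cKO, 906 and 675, were 1521 and 1209 by DESeq2, 107 and 68 with the replicate block and 15 to 2964 lower and 6 to 2197 higher with a pool left out, and total count scaling gave 1234 higher. The number of members called, 53, was 6 with the block and 1 to 55 with a pool left out. Over all lists together, 34 genes were lower and 27 higher. The block left 9 lower and 6 higher, DESeq2 gave 42 higher, and leaving out a pool gave 2 to 82 lower and 1 to 93 higher. Of 480 values per list, 330 stayed within 1.5 times and 150 moved, 115 of them with a pool left out. Depth limits the cKO values of these weakly expressed genes to the level of 3 counts. Whether the replicate numbers pair the pools is not known. Deviations from the group mean correlated at 0.111 for the pools numbered 1 and at -0.083 for those numbered 2. With 2 cKO pools the deviations of 1 are the negatives of the other, so these values are not separate checks and cannot decide the question. The 2 alternatives on members added after seeing the data, leaving out the Nnt and Derpc records or asking for 10 counts in every Ctrl pool, kept the number of members within 1.5 times.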

Other observations

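Gene lists that bear on the members less directly gave few calls among genes that are not members, and the counts depend on the pools (over all lists, leaving out a pool gave 2 to 82 lower and 1 to 93 higher calls). In the BMP and TGF-beta list 4 of 14 tested genes were higher and 1 lower in cKO. Id2, an inhibitor of basic helix-loop-helix factors, was higher at 4756 and 4763 counts in cKO, against 1802, 1775 and 2082 counts in Ctrl (log2 fold change 1.16, SE 0.13, edgeR adjusted p = 0.008), and Id3 was lower at 353 and 240 counts in cKO, against 730, 555 and 582 counts in Ctrl (log2 fold change -1.25, SE 0.28, edgeR adjusted p = 0.0391). In the Notch list 2 of 11 were lower, and Notch2 had 3 and 9 counts in cKO, against 67, 92 and 164 counts in Ctrl (log2 fold change -4.30, SE 0.62, edgeR adjusted p = 0.0148). In the FGF and ERK feedback list 2 of 11 were higher, Dusp6 and Spry4, with Dusp6 at 340 and 170 counts in cKO, against 71, 46 and 102 counts in Ctrl. All of these calls on the BMP, Notch and FGF lists were lost without any 1 of the Ctrl pools. Notch2 passed the filter on low counts through the Ctrl pools alone and could only be lower. Spry4 passed it through the cKO pools alone and could only be higher.

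Fibroblast genes gave 2 higher calls of 4 tested, Postn and Col1a1, and corneal endothelium 1 of 2, Col8a1. All of these genes passed the filter on low counts through the cKO pools alone, so they could only be higher. The calls on both lists became 0 without any 1 of the Ctrl pools and with the replicate block. Without a filter on low counts, Col8a1 was not called. Immediate early genes gave 1 higher call of 18 (Klf6), which became 0 without any 1 of the Ctrl pools. At an unadjusted p under 0.05, 6 of the 18 were higher and 1 lower, and DESeq2 called 5 higher and 0 lower. Their median log2 fold change was 1.09 against -0.056 over all genes. The list summed to 488 and 278 CPM for cKO 1 and 2, against 130 to 256 CPM for Ctrl. Ciliary epithelium gave 1 lower call of 4 (Aqp4), with 2 lower and 0 higher at an unadjusted p under 0.05 and by DESeq2. EdgeR called 0 genes of the pigment cell (5 tested), glia (3), endothelium (14), mural cell (6), erythroid (4) and lymphocyte (1) lists. At an unadjusted p under 0.05, 4 pigment genes were lower and 1 higher, 1 glial gene was lower, 1 endothelial gene was lower and 5 higher and 1 mural gene was lower, with 0 erythroid and 0 lymphocyte genes. DESeq2 called 3 pigment genes, 1 glial and 1 mural gene lower and 3 endothelial genes higher, and 0 erythroid and 0 lymphocyte genes.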
